A study of Mus musculus with 18 samples.

Results

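The genes for the proteins of the cytoplasmic ribosome were followed through 18 RNA sequencing libraries of mouse CD8+ T cells. They were picked by symbol: protein coding genes named Rpl or Rps with a number, the stalk genes Rplp0, Rplp1 and Rplp2, and Rpsa, leaving out symbols with -ps and the Rps6k kinases. Of 10800 genes found in all 3 deposited tables, 85 met this rule. They comprise 46 genes of the large (60S) subunit, 31 of the small (40S) subunit, and 7 paralogs or retrocopies of other members (Rpl7l1, Rpl22l1, Rpl32l, Rpl36al, Rpl37rt, Rps27l and Rps27rt). The remaining gene, Rps19bp1, fits the symbol rule but encodes a regulator of the deacetylase SIRT1 and not a ribosomal protein. No expression value entered the rule.

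A ribosome joins a small subunit, which reads the mRNA, to a large subunit, which forms the peptide bond, and each holds its own set of ribosomal proteins. The acidic stalk formed by Rplp0 with Rplp1 and Rplp2 recruits elongation factors. Most mRNAs for ribosomal proteins begin with a run of C and U, the terminal oligopyrimidine tract, which the protein LARP1 binds when mTORC1 kinase is inactive, so that their translation falls together. Their transcription and ribosome assembly are promoted by Myc. T cells that are activated by antigen enlarge their stock of ribosomes before they divide.

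Among cultured cells, 2 libraries came from T cells infected with a retrovirus that expresses Nr4a1 (Nr4a1-OV) and 2 from cells given the control virus RV-GFP. A further 2 libraries labelled Nr4a1 KO and 2 labelled Nr4a1 WT came from naïve cells activated on plates with anti-CD3/CD28 at 2 μg/mL. All 8 cultured libraries followed 2 h of restimulation with PMA and ionomycin, which bypass the antigen receptor. The other 10 libraries were of OT-I cells, which carry a transgenic receptor for an ovalbumin peptide, sorted from tumours: Ly108+ cells labelled Nr4a1-/- (3 libraries, here Ly108+ KO) or Nr4a1+/+ (3 libraries, here Ly108+ WT), and, on day 21, Nr4a1RFP+ reporter cells (2 libraries) or Tim-3+ cells (2 libraries). Nr4a1 encodes a nuclear receptor induced by antigen receptor signals. Which Nr4a1 allele was deleted, the strain background and the animals or cultures behind each library are not stated in the labels, so p-values measure the spread between these libraries only.

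Cultured libraries held 16769720 to 17119726 counts, and the reads recovered from the normalised tumour values came to 15173063 to 15808301 for Ly108+ cells and 17683817 to 24129078 for Nr4a1RFP+ and Tim-3+ cells. Nr4a1 mRNA was not lower in the libraries labelled KO: it stood at 103 and 103 RPKM (reads per kilobase of gene, scaled to library depth) in cultured KO, against 82.7 and 96.3 RPKM in cultured WT, and at 101 to 112 RPKM in Ly108+ KO, against 45.0 to 53.9 RPKM in Ly108+ WT. Gene totals do not show which exons were read, and directions below rest on these labels. In the Nr4a1-OV libraries Nr4a1 reached 1513 and 1447 RPKM, against 565 and 625 RPKM in RV-GFP. All 9 CD8 T cell markers were listed for the cultured and Ly108+ cells and 6 of 9 for the Nr4a1RFP+ and Tim-3+ cells, with Cd8a at 174 to 378 RPKM over the 18 libraries. The 2 Tim-3+ libraries differed far more from each other than other replicates did: chi-square over degrees of freedom, on reads per gene, was 43.5 for them and 2.08 to 11.7 for other replicate pairs.

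The 85 genes together took 6.66% and 7.01% of the summed RPKM in Nr4a1-OV, against 7.87% and 7.85% in RV-GFP. They took 8.27% and 8.23% in cultured libraries labelled KO, against 7.14% and 6.92% in those labelled WT. The groups did not overlap in either pair, and the share was low with the Nr4a1 virus and high in the KO-labelled cells. With 2 libraries against 2 the exact permutation test (two-sided) cannot go below p = 0.333, which is the value both differences gave. These are shares of the mRNA in a library, and in bulk samples fewer cells of a type and less RNA per cell cannot be told apart. Ly108+ KO libraries were at 7.60%, 8.79% and 9.08%, against 8.38%, 8.77% and 8.47% in Ly108+ WT, and the groups overlapped (two-sided exact permutation p = 1). Nr4a1RFP+ libraries were at 3.55% and 3.51%, against 3.88% and 2.87% in Tim-3+, so that the Tim-3+ libraries lay on both sides of the Nr4a1RFP+ pair (two-sided exact permutation p = 1). The retrocopy Rps27rt weighed heavily in these 4 shares, at 2441 and 2754 RPKM in Nr4a1RFP+ and 4344 and 2052 RPKM in Tim-3+. Beside it, the 46 large-subunit genes together summed to 3801 and 3549 RPKM in Nr4a1RFP+ and 4259 and 3304 RPKM in Tim-3+.

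**Figure D1:**
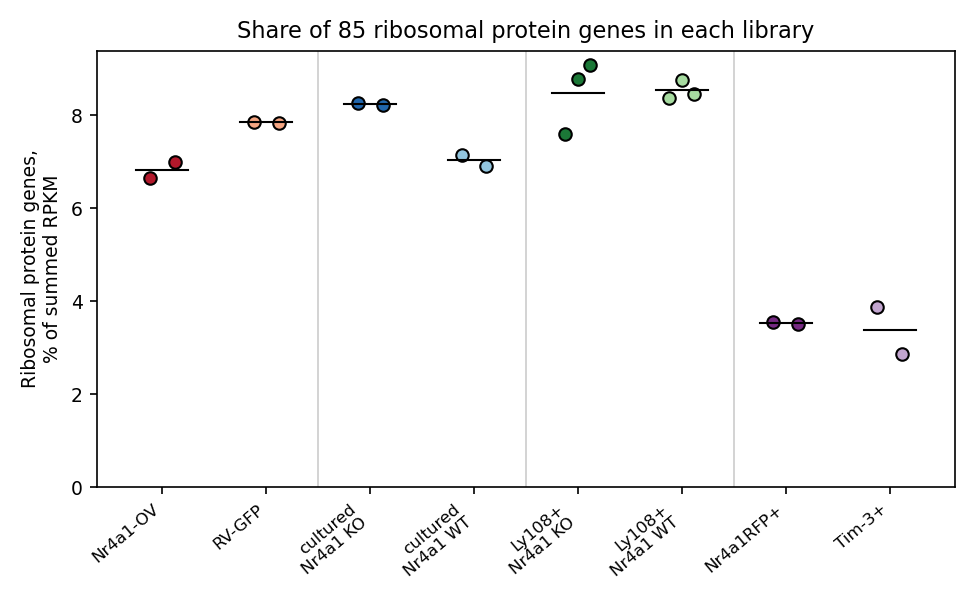
Share of the summed RPKM taken by the 85 ribosomal protein genes in each library (vertical axis, percent), for the 8 groups (horizontal axis, each comparison's first group left of the one it is set against). Points are libraries and bars group means. The cultured groups do not overlap within their pairs, from 6.66% in an Nr4a1-OV library to 8.27% in a KO-labelled one. The shares of Nr4a1RFP+ and Tim-3+ libraries include the retrocopy Rps27rt at 2052 to 4344 RPKM, and their values were normalised separately from the others.

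Levels differed widely between members. Rps15, a protein of the 40S head, averaged 1539 RPKM in Nr4a1-OV and 2076 RPKM in RV-GFP, and 1812 RPKM in cultured KO and 1374 RPKM in cultured WT. Rpl4, a core 60S protein, averaged 1203 RPKM in Nr4a1-OV and 1724 RPKM in RV-GFP, and 1724 RPKM in cultured KO and 1335 RPKM in cultured WT. In the table of the Nr4a1RFP+ and Tim-3+ cells the order was another one: Rps27rt averaged 2597 RPKM in Nr4a1RFP+ and 3198 RPKM in Tim-3+, where Rps15 averaged 282 RPKM in Nr4a1RFP+ and 303 RPKM in Tim-3+. The median member was at 156 and 161 RPKM in Nr4a1-OV, against 212 and 222 RPKM in RV-GFP, and at 190 and 181 RPKM in cultured KO, against 159 and 146 RPKM in cultured WT. In the table of the Nr4a1RFP+ and Tim-3+ cells the median member was at 24 to 32.9 RPKM. That table holds 0 ribosomal protein pseudogenes, whereas 98 ribosomal protein pseudogenes stand in the Ly108+ table and 141 in the cultured one. The 3 tables were normalised separately, so each test below stays within a table.

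Relative to the other mRNA of a library, nearly every member was lower in Nr4a1-OV than in RV-GFP. Of the 85 genes, 78 were lower and 0 higher (edgeR quasi-likelihood test, Benjamini-Hochberg adjusted p under 0.05), where 29.6% of the 14994 genes tested were lower and 31.3% were higher. At an unadjusted p under 0.05 these counts were 78 lower and 0 higher (edgeR). DESeq2 called 77 lower and 0 higher, where 22.7% of all 17738 genes with reads were lower and 20.4% higher. These DESeq2 shares count any gene left without an adjusted p as not called. The median log2 fold change was -0.51 over the members and 0.02 over all genes tested. Both Nr4a1-OV libraries lay below both RV-GFP libraries in 79 members, against 38.6% of all genes, and above both in 0 members, against 41.0% of all genes. By subunit, 43 of 46 large-subunit genes fell, with a median of -0.51, as did 29 of 31 small-subunit genes, with a median of -0.53.

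The 6 members with the lowest fold changes were Rpl21, Rpl14, Rps27a, Rpl13a, Rps10 and Rps25. Rpl14, a 60S protein, had 319 and 310 CPM (counts scaled to library depth with TMM factors) in Nr4a1-OV, against 531 and 530 CPM in RV-GFP, a log2 fold change of -0.75 ± 0.056 (SE, edgeR adjusted p = 2.08e-10). Rps27a, whose product is made as a fusion with ubiquitin, had 161 and 167 CPM in Nr4a1-OV, against 285 and 260 CPM in RV-GFP (-0.73 ± 0.056 (SE), edgeR adjusted p = 3.77e-10). For both genes each Nr4a1-OV library lay well under each RV-GFP library. Rpl13a, a 60S protein that in human cells also takes part in translational silencing of inflammatory mRNAs, stood at 55.9 and 55.4 CPM in Nr4a1-OV, against 89.8 and 93.5 CPM in RV-GFP. Rpl21 and Rps10 stood at low counts, 15.3 and 16.4 CPM for Rpl21 and 15.5 and 16.3 CPM for Rps10 in Nr4a1-OV, against 28.2 and 31.5 CPM for Rpl21 and 23.4 and 26.5 CPM for Rps10 in RV-GFP. Rpl21 had the lowest fold change of all, -0.91 ± 0.11 (SE, edgeR adjusted p = 2.54e-07).

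The smallest decreases past the threshold were those of Rpl37rt (-0.24), Rps27 (-0.24), Rpl37a (-0.28), Rps27l (-0.31), Rpl19 (-0.37) and Rpl27 (-0.37). Rps27, a zinc finger protein of the small subunit, had 534 and 591 CPM in Nr4a1-OV, against 679 and 653 CPM in RV-GFP. The decrease of Rpl37rt did not pass with DESeq2 (adjusted p = 0.079) or without Nr4a1-OV replicate 1 (edgeR adjusted p = 0.382) or RV-GFP replicate 2 (edgeR adjusted p = 0.119), and that of Rps27l did not pass without RV-GFP replicate 1 (edgeR adjusted p = 0.0677). The 7 members that did not pass were Rpl23a, Rpl24, Rpl32l, Rpl34, Rps15a, Rps26 and Rps27rt. Rps15a, at 453 and 460 CPM in Nr4a1-OV and 455 and 447 CPM in RV-GFP, and Rps26, at 1189 and 1263 CPM in Nr4a1-OV and 1255 and 1276 CPM in RV-GFP, are small-subunit genes whose libraries overlapped between the groups. Rpl23a, Rpl24, Rpl32l and Rps27rt had under 10 CPM in every cultured library, and a member's lowest count was 4.

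Other values moved between the same libraries. Mitochondrially encoded genes took 8.60% and 8.53% of the RPKM over shared genes in Nr4a1-OV, against 7.01% and 7.22% in RV-GFP, and the chemokine gene Xcl1 alone took 2.69% and 2.89% of all RPKM in Nr4a1-OV, against 6.19% and 6.18% in RV-GFP. All 4 markers of CD4 and regulatory T cells were listed, with a summed level of 65.1 to 65.6 RPKM in Nr4a1-OV and 40 to 40.1 RPKM in RV-GFP. Within that list Foxp3 was at 55.7 to 56.1 RPKM in Nr4a1-OV, against 0.630 to 0.768 RPKM in RV-GFP, Cd40lg was at 5.49 to 5.6 RPKM in Nr4a1-OV, against 37.4 RPKM in both RV-GFP libraries, and Cd4 itself was at 0.101 to 0.145 RPKM in Nr4a1-OV and 0.114 to 0.162 RPKM in RV-GFP. The 5 genes of dissociation stress summed to 119 to 129 RPKM in Nr4a1-OV and 84.4 to 92.2 RPKM in RV-GFP, and the NK list, of which 1 of 3 was listed (Eomes), stood at 45.4 to 49.1 RPKM in Nr4a1-OV and 24 to 25 RPKM in RV-GFP. Their part in the decrease was not tested. Scaling the libraries without the ribosomal protein genes gave the same counts of 78 lower and 0 higher, where 30.1% of all genes were lower and 30.9% higher.

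**Figure D2:**
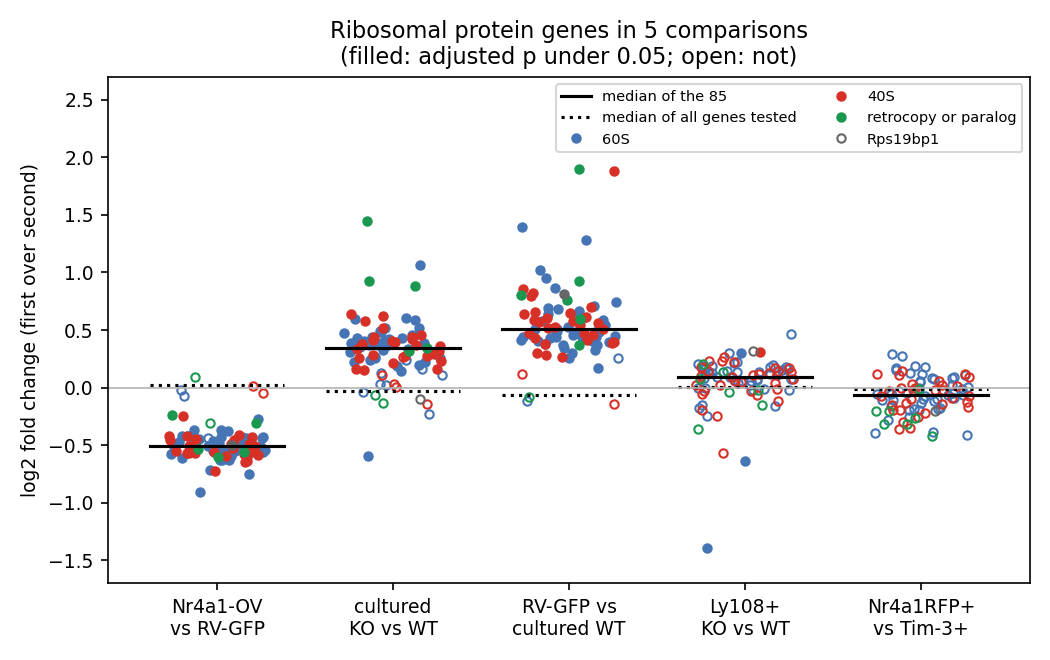
Log2 fold change of each of the 85 genes in 5 comparisons (first group over second), coloured by class, filled where the adjusted p was under 0.05. Solid bars are medians of the 85 genes and dotted bars medians of all genes tested; the members sit near -0.51 for Nr4a1-OV vs RV-GFP, 0.35 for cultured KO vs WT and 0.50 for RV-GFP vs cultured WT, and close to 0 in both tumour comparisons.

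Most members were higher, relative to the other mRNA of a library, in cultured cells labelled KO than in those labelled WT. Of the 85 genes, 68 rose and 1 fell (edgeR quasi-likelihood test, adjusted p under 0.05), where 18.4% of all genes tested were higher and 21.6% lower. The median log2 fold change was 0.35 over the members and -0.03 over all genes. Both KO-labelled libraries lay above both WT-labelled ones in 72 members, against 31.9% of all genes, and below both in 2, against 37.0%. By subunit, 37 of 46 large-subunit genes rose and 1 fell, and 26 of 31 small-subunit genes rose.

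Among members with a mean log2 CPM of at least 1, the highest fold change was that of Rplp0, the stalk base. Rps27rt, below that level, came to 1.45 on 10 and 14 counts in cultured KO, against 4 and 5 counts in cultured WT. Rplp0 had 2071 and 2052 CPM in cultured KO, against 1011 and 957 CPM in cultured WT, a log2 fold change of 1.07 ± 0.052 (SE, edgeR adjusted p = 7.85e-13). Its partners moved less: Rplp2 had 621 and 625 CPM in cultured KO, against 553 and 537 CPM in cultured WT (0.19 ± 0.057 (SE), edgeR adjusted p = 0.00989), and Rplp1, at 870 and 849 CPM in cultured KO and 778 and 761 CPM in cultured WT, did not pass (edgeR adjusted p = 0.062). The stalk genes thus spanned 0.16 to 1.07 on the log2 scale. Rpsa, a 40S protein that also serves as a laminin receptor, had 856 and 837 CPM in cultured KO, against 713 and 731 CPM in cultured WT (0.23 ± 0.049 (SE), edgeR adjusted p = 0.000781).

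Next came Rpl32l (0.93), Rpl22l1 (0.88), Rps14 (0.64), Rps23 (0.62) and Rpl26 (0.60). Rps14, at the platform of the small subunit, had 902 and 862 CPM in cultured KO, against 576 and 555 CPM in cultured WT. Rps23, at the decoding centre, had 219 and 200 CPM in cultured KO, against 139 and 133 CPM in cultured WT. Rpl26, which in human cells also binds the mRNA of p53, had 390 and 369 CPM in cultured KO, against 257 and 243 CPM in cultured WT. All 3 showed KO-labelled libraries above WT-labelled ones without overlap. Rpl32l rested on 1.04 to 2.61 CPM and lost its call with DESeq2 (adjusted p = 0.0631) and without cultured Nr4a1 WT replicate 2 (edgeR adjusted p = 0.117).

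Among the smallest increases that passed were Rpl8 (0.14), Rps9 (0.15), Rps26 (0.16) and Rpl28 (0.19), and each of these 4 lost its call when a single library was left out, as with cultured Nr4a1 WT replicate 2 (edgeR adjusted p of 0.133 for Rpl8, 0.205 for Rps9, 0.316 for Rps26 and 0.176 for Rpl28). Rpl30, a 60S protein, went the other way. It had 39.9 and 44.2 CPM in cultured KO, against 65.1 and 62.2 CPM in cultured WT, a log2 fold change of -0.60 ± 0.084 (SE, edgeR adjusted p = 7.08e-06), and was the 1 member that fell.

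Beside these values, mitochondrially encoded genes took 10.3% and 9.64% of the RPKM over shared genes in cultured KO, against 11.3% and 10.9% in cultured WT. Myeloid markers, of which 3 of 5 were listed, summed to 12.5 to 13.1 RPKM in cultured KO and 4.41 to 4.73 RPKM in cultured WT. Nearly all of this was Cd68, while Lyz2 was at 0.173 to 0.221 RPKM in cultured KO and 0 to 0.0846 RPKM in cultured WT. Of 3 NK markers 1 was listed, Eomes, which CD8 T cells also express, at 57.3 to 62.6 RPKM in cultured KO and 18.6 to 19.8 RPKM in cultured WT. The part of these differences in the increase was not tested.

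With all cultured libraries fitted together, the fold change of Nr4a1-OV over RV-GFP was set against that of KO over WT. These 2 contrasts share no library, but their difference uses the same 8 libraries and the same fit as the contrasts above. Those had member medians of -0.51 and 0.35, so the direction of the difference follows from them and is no further evidence. The difference was below 0 for 80 members and above 0 for 0 (edgeR quasi-likelihood test, adjusted p under 0.05), where 26.2% of all genes tested were lower and 29.6% higher (55.8% either way). At an unadjusted p under 0.05, 81 members were below 0 and 0 above (edgeR). Its median was -0.82 over the members and 0.05 over all genes. It was lowest for Rps27rt (-1.76), a copy with at most 18 counts in a cultured library, followed by Rplp0 at -1.49 ± 0.073 (SE, edgeR adjusted p = 5.08e-13) and Rpl22l1 at -1.42 ± 0.10 (SE, edgeR adjusted p = 2.71e-10). Of the 78 genes called with Nr4a1-OV and the 69 called in the KO-labelled cells, 64 were in both lists, which is 82.1% of the 78 and 92.8% of the 69. Of all 85 members 81.2% were called in the KO-labelled cells and 91.8% with Nr4a1-OV, so these shares are close to those of all members. Rpl30 fell in both. Across the 85 genes, which share libraries within each contrast and are no replicates, Pearson's r was 0.14 and Spearman's rho 0.06.

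**Figure D3:**
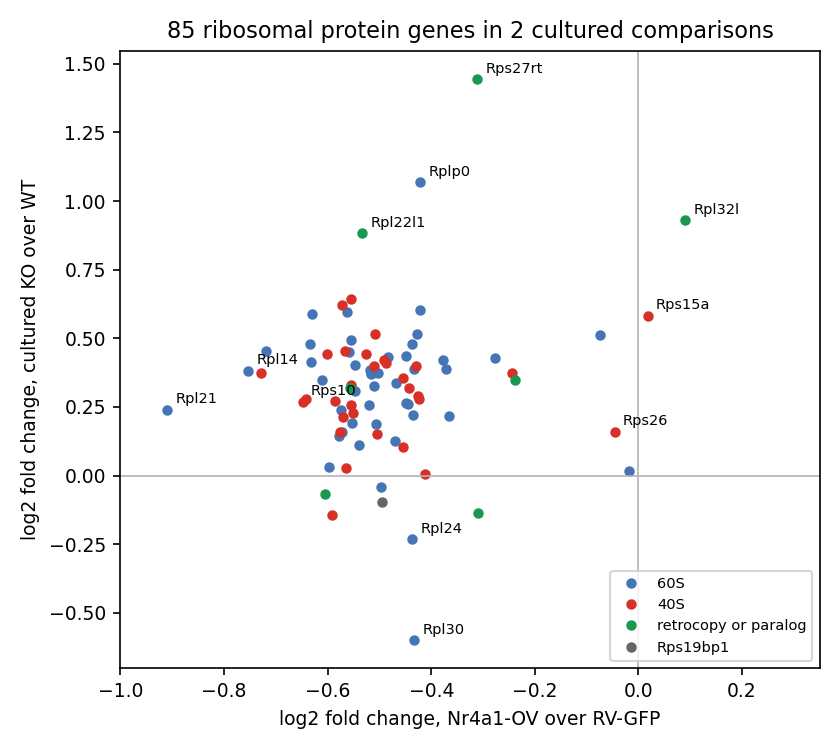
Each point is a ribosomal protein gene, with its log2 fold change for Nr4a1-OV over RV-GFP on the horizontal axis and for cultured KO over WT on the vertical axis. Most points lie in the upper left, lower with the Nr4a1 virus and higher in KO-labelled cells, while Rpl30 lies below 0 on both axes.

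RV-GFP cells and antibody-activated WT-labelled cells differ in virus and in the labels' culture protocol, and these cannot be told apart. Nr4a1 mRNA was also higher in RV-GFP, at 565 and 625 RPKM, against 82.7 and 96.3 RPKM in cultured WT, and its part was not tested. Of the 85 genes, 80 were higher in RV-GFP and 0 lower (edgeR quasi-likelihood test, adjusted p under 0.05), where 32.4% of all genes tested were higher and 38.6% lower, and 71.0% changed either way, with medians of 0.50 over the members and -0.07 over all genes. Both RV-GFP libraries lay above both WT-labelled ones in 81 members, against 39.2% of all genes. At an unadjusted p under 0.05, 80 members were higher and 0 lower (edgeR). DESeq2 gave the same counts after adjustment, where 25.4% of all 17738 genes with reads were higher and 27.6% lower. This contrast shares its libraries with the Nr4a1-OV and the KO contrasts, so its values stand beside theirs and are no further evidence for either. Mitochondrially encoded genes took 7.01% and 7.22% of the RPKM over shared genes in RV-GFP, against 11.3% and 10.9% in cultured WT. The 4 markers of CD4 and regulatory T cells summed to 40 to 40.1 RPKM in RV-GFP and 6.38 to 6.93 RPKM in cultured WT, with Cd40lg at 37.4 RPKM in RV-GFP and 1.37 to 1.47 RPKM in cultured WT. The 5 genes of dissociation stress summed to 84.4 to 92.2 RPKM in RV-GFP and 43.2 to 44.1 RPKM in cultured WT, and their part and that of the others was not tested.

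Rps27rt came to 1.90 on 18 and 11 counts in RV-GFP, against 4 and 5 counts in cultured WT. Among members with a mean log2 CPM of at least 1, the highest fold changes in RV-GFP over cultured WT were 1.88 ± 0.12 (SE, edgeR adjusted p = 3.36e-12) for Rps10, 1.39 for Rpl30, 1.28 for Rplp0, 1.02 for Rpl21, 0.92 for Rpl36al and 0.87 for Rpl10a. Rps10, a protein of the 40S head, had 23.4 and 26.5 CPM in RV-GFP, against 6.90 and 6.64 CPM in cultured WT, and Rpl30 had 174 and 160 CPM in RV-GFP, against 65.1 and 62.2 CPM in cultured WT. With the reads of pseudogenes named after members added to them, a check chosen after the data had been seen, Rps10 came to 1.20 (edgeR adjusted p = 6.01e-11). Rpl8 had 2002 and 2099 CPM in RV-GFP, against 1540 and 1482 CPM in cultured WT, and Rpl4 had 3462 and 3479 CPM in RV-GFP, against 2731 and 2614 CPM in cultured WT, a log2 fold change of 0.38 ± 0.049 (SE). Among the smallest that passed were Rpl36a (0.17), Rpl13a (0.26), Rps29 (0.28) and Rpl7a (0.30). Without cultured Nr4a1 WT replicate 2 the calls of Rpl36a, Rpl13a and Rpl7a were lost (edgeR adjusted p of 0.166, 0.056 and 0.0626). The 5 members that did not pass were Rpl23a, Rpl41, Rps2, Rps26 and Rps27l.

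Paralogs followed their parents in some pairs and not in others. Rpl22 is an RNA-binding 60S protein that mice need for the development of αβ T cells, and its protein restrains the paralog Rpl22l1. Rpl22l1 had 43.8 and 45.5 CPM in cultured KO, against 24.4 and 24 CPM in cultured WT (0.88 ± 0.074 (SE), edgeR adjusted p = 5.13e-09), while Rpl22 had 527 and 495 CPM in cultured KO, against 371 and 363 CPM in cultured WT (0.48 ± 0.055 (SE), edgeR adjusted p = 5.10e-07). Both genes rose, and the log2 ratio of Rpl22l1 to Rpl22 (from RPKM) averaged -2.97 ± 0.10 in cultured KO and -3.37 ± 0.0030 in cultured WT (SD, n = 2 each, two-sided exact permutation p = 0.333, the smallest possible). With Nr4a1-OV both fell, to 28.2 and 30.3 CPM for Rpl22l1, against 43.1 and 41.5 CPM in RV-GFP, and the ratio averaged -3.06 ± 0.023 in Nr4a1-OV and -2.96 ± 0.049 in RV-GFP (SD, n = 2 each, exact permutation p = 0.333). In Ly108+ cells the ratio averaged -1.60 ± 0.058 in KO-labelled and -1.44 ± 0.049 in WT-labelled libraries (SD, n = 3 each), without overlap, at the smallest two-sided exact permutation p of 0.1 that 3 libraries against 3 allow.

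Rps27l, a paralog of Rps27 that human p53 induces, parted from Rps27. In cultured KO it had 78.6 and 68.1 CPM, against 88.0 and 73.4 CPM in cultured WT (-0.14 ± 0.085 (SE), edgeR adjusted p = 0.215), where Rps27 had 510 and 486 CPM in cultured KO, against 395 and 373 CPM in cultured WT (0.37 ± 0.057 (SE), edgeR adjusted p = 1.86e-05). Their log2 ratio averaged -2.41 ± 0.096 in cultured KO and -1.90 ± 0.13 in cultured WT (SD, n = 2 each), without overlap (two-sided exact permutation p = 0.333). Rpl7l1, whose product works in ribosome assembly, had 137 and 132 CPM in cultured KO and 147 and 134 CPM in cultured WT (edgeR adjusted p = 0.38), while its parent Rpl7 had 811 and 783 CPM in cultured KO, against 605 and 574 CPM in cultured WT. With Nr4a1-OV, Rpl7l1 fell to 140 and 139 CPM, against 210 and 215 CPM in RV-GFP (-0.61 ± 0.056 (SE), edgeR adjusted p = 5.87e-09). Rpl36al had 11.5 and 11.7 CPM in Nr4a1-OV, against 16.8 and 17.3 CPM in RV-GFP, beside 141 and 158 CPM for Rpl36a in Nr4a1-OV, against 232 and 231 CPM in RV-GFP. Both genes of that pair fell, by 0.56 and 0.63 on the log2 scale. Rps19bp1, the gene that is not a ribosomal protein, also fell, with 31.4 and 34.1 CPM in Nr4a1-OV against 45.1 and 47.4 CPM in RV-GFP, and did not pass in cultured KO, at 24.9 and 24.4 CPM, against 26.0 and 26.7 CPM in cultured WT.

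In Ly108+ tumour cells, few members passed. Of the 85 genes, 2 were higher in KO-labelled libraries and 2 lower (limma on log2 of RPKM plus 1, adjusted p under 0.05), where 2.04% of the 11265 genes tested were higher and 2.41% lower (4.45% either way), so the members' shares were near those of all genes. Groups did not overlap for 15 members higher in KO (17.6%), against 14.5% of all genes, and for 4 lower in KO (4.71%), against 15% of all genes. The median log2 fold change was 0.09 over the members and 0.00 over all genes, and 61 of the 85 were above 0. KO-labelled replicate 1 stood apart: without it 31 members were higher and 3 lower, against 6.93% of all genes higher and 7.845% lower. With any other of the 6 libraries left out 0 were higher and 1 or 2 lower. Beside these, 0.350% to 0.677% of all genes were higher and 0.254% to 0.659% lower.

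Rpl30 was again lower in the KO-labelled cells, at 20.5, 23.6 and 26.1 RPKM in Ly108+ KO, against 62.3, 67.8 and 58.4 RPKM in Ly108+ WT (-1.39 ± 0.092 (SE), limma adjusted p = 0.000286). Rplp0 was at 667, 748 and 752 RPKM in Ly108+ KO, against 1068, 1116 and 1178 RPKM in Ly108+ WT (-0.63 ± 0.076 (SE), limma adjusted p = 0.0074). Neither gene's groups overlapped, and Rplp0 here moved opposite to its direction in culture. Its call was lost without Ly108+ WT replicate 2 or 3 (limma adjusted p of 0.0546 and 0.0545). Rps19, a 40S protein needed for red cell development, was at 99.9, 105 and 104 RPKM in Ly108+ KO, against 76.1, 86.4 and 86.4 RPKM in Ly108+ WT (0.31 ± 0.060 (SE), limma adjusted p = 0.0365). Rpl13a was at 22.7, 21.6 and 22.5 RPKM in Ly108+ KO, against 17.4, 18.8 and 17.7 RPKM in Ly108+ WT (0.30 ± 0.050 (SE), limma adjusted p = 0.0252). The calls of Rps19 and Rpl13a were each lost without any library but KO-labelled replicate 1 (limma adjusted p of 0.0664 to 0.146 for Rps19 and 0.0712 to 0.107 for Rpl13a).

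The pseudogene Rplp0-ps1 moved the other way from Rplp0 in both settings. It was at 87.8, 92.4 and 96.5 RPKM in Ly108+ KO, against 2.65, 2.36 and 2.83 RPKM in Ly108+ WT, where Rplp0 was lower in KO. In culture it had 40 and 36 counts in KO, against 1267 and 1257 counts in WT, where Rplp0 had 35773 and 35992 counts in KO, against 18171 and 17444 counts in WT. The libraries with high Rplp0-ps1 were thus cultured WT and Ly108+ KO, and Nr4a1-OV and RV-GFP libraries stood at 28 to 44 counts. Adding the reads of named pseudogenes to each member, a check chosen after the data had been seen, left Rplp0 at 0.98 in culture (edgeR adjusted p = 3.33e-12) and at -0.54 on recovered reads in Ly108+ cells (edgeR adjusted p = 0.000307). Rpl3-ps1 was at 110, 116 and 122 RPKM in Ly108+ KO, against 43.3, 41.7 and 40.8 RPKM in Ly108+ WT, and had 1850 and 1883 counts in cultured KO, against 747 and 714 counts in cultured WT. Here the KO-labelled libraries were the higher ones in both settings, and Rpl3 itself passed in neither (edgeR adjusted p = 0.091 in culture, limma adjusted p = 0.0948 in Ly108+ cells). Ribosomal protein genes have many near-identical processed copies, so how reads were divided between a gene and its copies is uncertain for every value here.

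**Figure D4:**
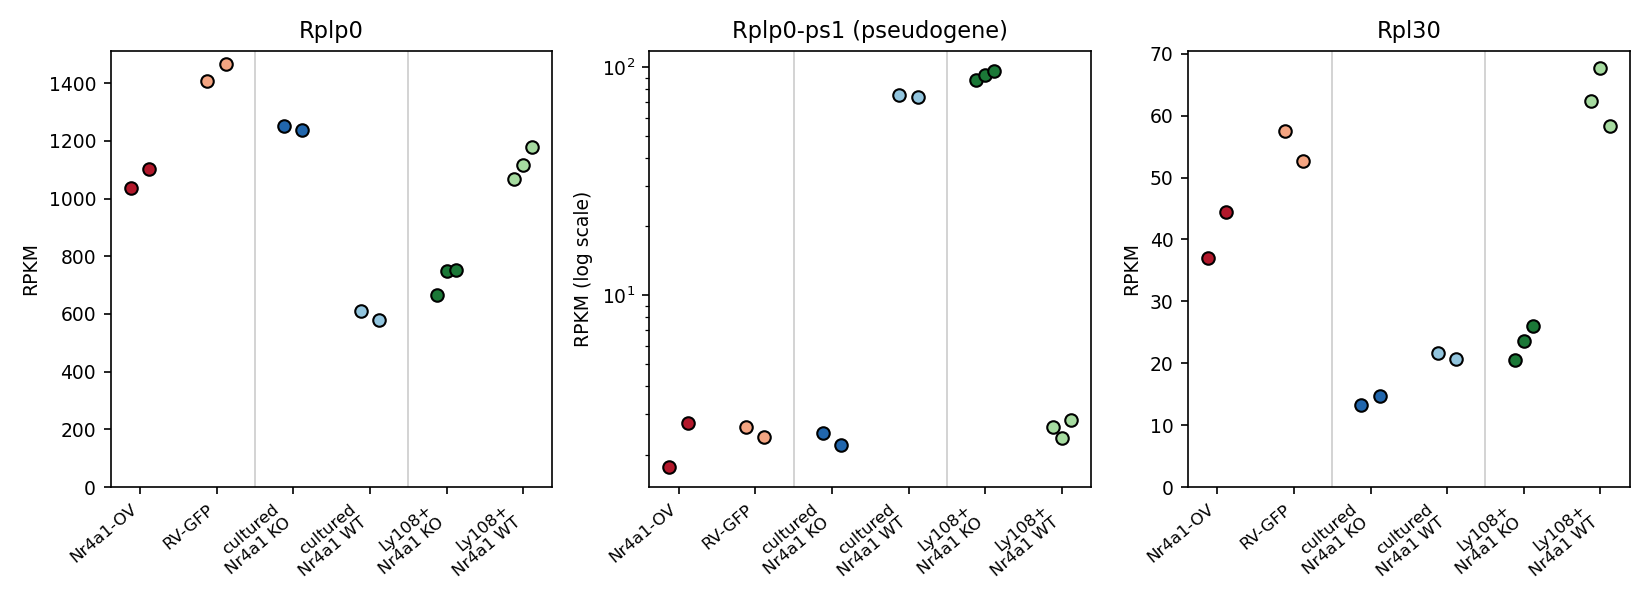
RPKM of Rplp0, of the pseudogene Rplp0-ps1 (log axis) and of Rpl30 in the 4 cultured and 2 Ly108+ groups, each point a library. Rplp0-ps1 is high in cultured WT and in Ly108+ KO, the groups with the lower Rplp0 of their pair, and Rpl30 is lower in KO than in WT in both settings.

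Myeloid markers were also higher in the Ly108+ KO libraries. All 5 were listed and above 0, and summed to 85.5 to 120 RPKM in Ly108+ KO and 56.7 to 70.6 RPKM in Ly108+ WT, mostly from Lyz2 at 63.3 to 91.1 RPKM in Ly108+ KO and 40.1 to 52.0 RPKM in Ly108+ WT. Csf1r was at 0.636 to 0.777 RPKM in Ly108+ KO and 0.312 to 0.359 RPKM in Ly108+ WT. Of 6 genes of tumour and stroma 4 were listed, with a sum of 53.6 to 62.1 RPKM in Ly108+ KO and 50.1 to 50.7 RPKM in Ly108+ WT. Among them the fibroblast gene Col1a1 was at 3.82 to 6.32 RPKM in Ly108+ KO and 0.713 to 1.72 RPKM in Ly108+ WT, and Col3a1 at 3.66 to 7.90 RPKM in Ly108+ KO and 0.834 to 2.07 RPKM in Ly108+ WT. Both collagens were a small part of that sum, most of which came from the other listed genes. The CD8 T cell markers also summed higher, to 6106 to 6711 RPKM in Ly108+ KO and 4609 to 4694 RPKM in Ly108+ WT. The part of all these differences in the 4 calls was not tested. Between the KO and WT contrasts of the 2 settings, which share no library, all 4 genes called in Ly108+ cells were also called in culture, where 81.2% of the members were, Rpl30, Rpl13a and Rps19 with the same sign and Rplp0 with the opposite one. Across the 85 genes Pearson's r between these fold changes was 0.16 and Spearman's rho 0.02.

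Between Nr4a1RFP+ and Tim-3+ cells no member passed. There were 0 of 85 higher and 0 lower (limma on log2 of RPKM plus 1, adjusted p under 0.05), where 9.08% of the 9508 genes tested were higher and 8.61% lower. An unadjusted p under 0.05 was reached by 3 members, edgeR on recovered reads also gave 0, and the median log2 fold change was -0.07 over the members and -0.01 over all genes. These counts depended on the Tim-3+ libraries: without Tim-3+ replicate 2, 39 members were lower, against 18.4% of all genes, and without Tim-3+ replicate 1, 8 were higher, against 14.6% of all genes, with member medians of -0.27 and 0.10. Both Nr4a1RFP+ libraries lay above both Tim-3+ libraries in 5 members, against 29.8% of all genes, and below both in 7, against 31.4%. The highest fold changes were those of Rpl36a, at 3.15 and 2.48 RPKM in Nr4a1RFP+ and 2.51 and 1.74 RPKM in Tim-3+ (0.29 ± 0.16 (SE), limma adjusted p = 0.257), and of Rpl22, at 14.8 and 11.5 RPKM in Nr4a1RFP+ and 11.98 and 9.42 RPKM in Tim-3+ (limma adjusted p = 0.297). The lowest were those of Rps27l, at 50.8 and 47.8 RPKM in Nr4a1RFP+ and 78.5 and 56.4 RPKM in Tim-3+ (-0.43 ± 0.17 (SE), limma adjusted p = 0.135), and of Rpl38, which in mice is needed for translation of Hox mRNAs, at 4.84 and 3.60 RPKM in Nr4a1RFP+ and 7.57 and 4.56 RPKM in Tim-3+ (limma adjusted p = 0.248). With the replicate number as a block the call of Rpl38 passed (limma adjusted p = 0.0436).

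In the table of those cells the retrocopies, and some other paralogs, outranked their parents. Rps27rt was at 2441 and 2754 RPKM in Nr4a1RFP+ and 4344 and 2052 RPKM in Tim-3+, beside Rps27 at 17.5 and 19.5 RPKM in Nr4a1RFP+ and 29.5 and 14.8 RPKM in Tim-3+. In the other 14 libraries Rps27rt was at 0.596 to 3.33 RPKM and Rps27 at 359 to 685 RPKM. Rpl37rt was at 355 and 350 RPKM in Nr4a1RFP+ and 568 and 339 RPKM in Tim-3+, beside Rpl37 at 10 and 9.90 RPKM in Nr4a1RFP+ and 13.0 and 8.53 RPKM in Tim-3+. The order of parent and copy was thus reversed against the other tables, also for Rpl32l, at 750 and 687 RPKM in Nr4a1RFP+ and 1073 and 692 RPKM in Tim-3+, beside Rpl32 at 348 and 315 RPKM in Nr4a1RFP+ and 513 and 317 RPKM in Tim-3+. Which copy gave the transcripts was not tested. The tables were normalised separately, so these levels stand side by side with no test between tables. Cd68 was at 37.7 to 47.5 RPKM in Nr4a1RFP+ and 13.8 to 14.4 RPKM in Tim-3+, and the 5 listed myeloid markers summed to 43.1 to 52.3 RPKM in Nr4a1RFP+ and 20.5 to 21.6 RPKM in Tim-3+, with Csf1r at 0 in a Tim-3+ library.

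**Figure D5:**
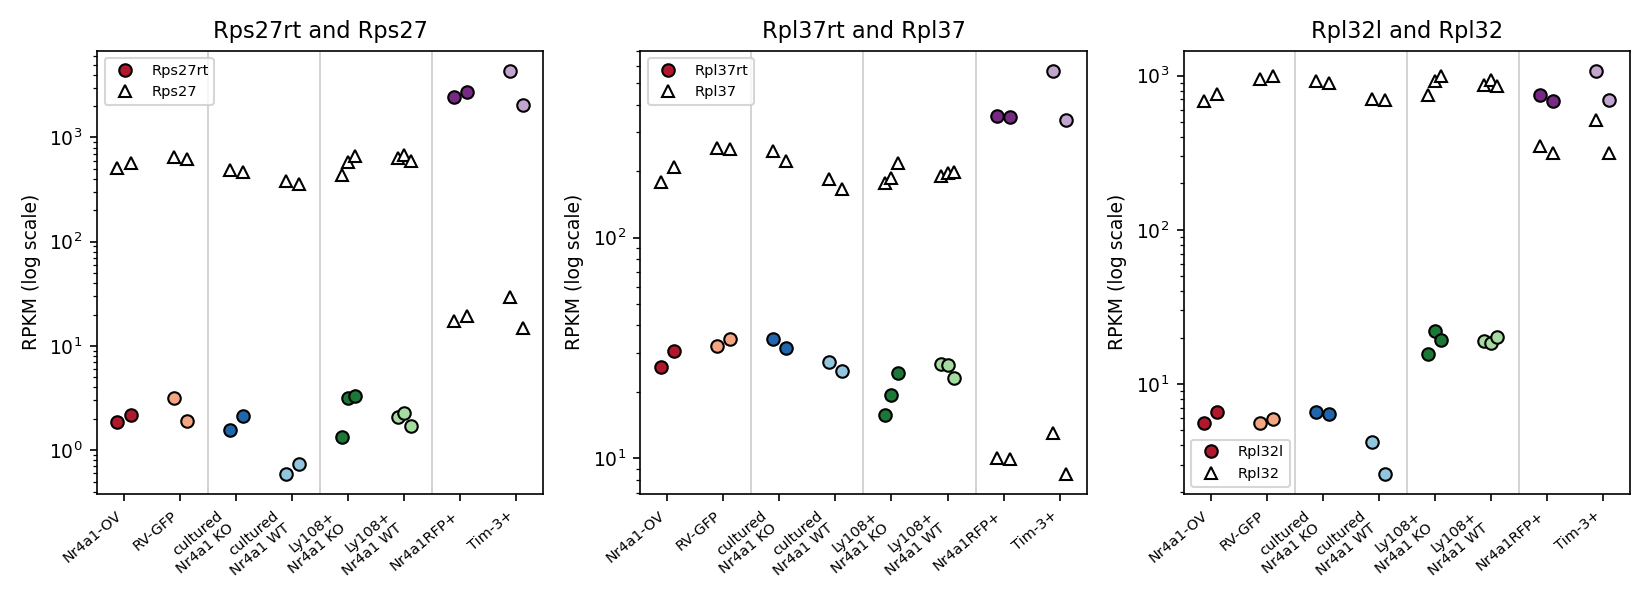
RPKM (log axes) of 3 copies (filled circles) and of their parent genes (open triangles) in the 18 libraries of the 8 groups. Rps27rt, Rpl37rt and Rpl32l exceed their parents in the Nr4a1RFP+ and Tim-3+ libraries, with Rps27rt at 2052 to 4344 RPKM, and lie below them in the 6 other groups.

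Other genes of ribosome production also fell with Nr4a1-OV. The counts below stand beside 29.6% of all genes lower and 31.3% higher in Nr4a1-OV relative to RV-GFP, and 18.4% higher and 21.6% lower in cultured KO relative to WT. Of 40 ribosome biogenesis genes, 40 fell and 0 rose in Nr4a1-OV relative to RV-GFP, with a median log2 fold change of -0.80 against 0.02 over all genes, among them Ncl (-1.03), Utp20 (-1.05), Nop58 (-0.90) and Gtpbp4 (-0.87). In cultured KO relative to WT, 18 rose and 1 fell, with a median of 0.13. RNA polymerase I transcribes the ribosomal RNA precursor, and 13 of 14 genes tested of that enzyme and its factors fell with Nr4a1-OV, among them Polr1a (-0.81), Polr1b (-0.76), Cd3eap (-0.71) and Rrn3 (-0.73), while 4 rose and 1 fell in KO. Among 25 translation factors and other genes with terminal oligopyrimidine mRNAs, 23 fell and 1 rose with Nr4a1-OV (median -0.47), including Npm1 (-0.98) and Eef1g (-0.85), and 19 rose and 0 fell in KO (median 0.26), including Eef1a1 (0.67) and Tpt1 (0.42). Fau and Rack1, ribosomal genes outside the symbol rule, fell with Nr4a1-OV (-0.25 and -0.50) and rose in KO (0.56 and 0.34).

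Regulators were mixed. The list of 26 genes of mTOR, Myc and LARP1 control also held other genes, namely Rps6ka1, Larp4 and the Eif2ak genes. Of these 26, 14 fell and 6 rose with Nr4a1-OV, with Eif4ebp1 (-1.28) and Eif4e (-0.77) among the falls. In KO 10 rose and 8 fell, with Myc (0.41) and Larp1 (0.30) among the rises and Eif4ebp2 (-0.43) among the falls. For the Nr4a1-OV effect minus the KO effect, 14 of the list were lower, among them Myc (-1.01) and Larp1 (-0.80), and 7 higher. Over all genes 26.2% were lower and 29.6% higher in that difference. Myc was higher in RV-GFP than in cultured WT, at 2.04 ± 0.054 (SE, edgeR adjusted p = 3.49e-18), where 40 of 40 biogenesis genes and 25 of 25 oligopyrimidine genes were higher, beside 32.4% of all genes. Mitochondrial ribosomal proteins, which serve the organelle's own ribosome, were counted beside the cytoplasmic set: 63 of 77 fell and 1 rose with Nr4a1-OV (median -0.43), and 22 fell and 7 rose in KO (median -0.08). In Ly108+ KO relative to WT, 1 of 40 biogenesis genes (Nop10, 0.34) and 1 of 14 polymerase I genes (Polr1d, 0.26) were higher (limma). Of 77 mitochondrial ribosomal genes, Mrps23 (0.25) and Mrpl57 (0.36) were higher, and of 25 regulators tested Tsc1 (-0.32) was lower. Over all genes 2.04% were higher and 2.41% lower there. In Nr4a1RFP+ relative to Tim-3+, 25 regulators were tested. Myc (0.80) and Larp4 (0.72) were higher and Rps6ka1 (-0.98) and Eif2ak3 (-0.63) lower (limma). Of 76 mitochondrial ribosomal genes, Mrps6 (0.53) was higher and Mrpl51 (-0.50) lower. The other lists gave 0 calls there, beside 9.08% of all genes higher and 8.61% lower.

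The members lie on 19 chromosomes, and the letters at their starts were examined for what they share. RefSeq start windows (GRCm38.p6, 250 bases before to 50 after the start) were found for 65 of the 85 genes, in 76 windows. A run of at least 6 C or T that includes the start base or ends just before it, within 15 bases either side, was present in 28.9% of member windows and in 10.7% of all 32851 windows. The 30 bases around the start are shown for 4 members with such a run, in capitals, and for 3 members that also changed in culture and whose annotated start has no run of that length. The start is base 16, and runs that do not reach it, as at the left end of the Rps25 window, were not counted and are in lower case.
Rpl14, chr9:120571502-120571531, plus strand: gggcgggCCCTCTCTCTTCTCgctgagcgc
Rps10, chr17:27635230-27635259, minus strand: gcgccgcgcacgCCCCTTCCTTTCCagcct
Rplp2, chr7:141447636-141447665, plus strand: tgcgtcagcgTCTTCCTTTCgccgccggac
Rps27, chr3:90213634-90213663, minus strand: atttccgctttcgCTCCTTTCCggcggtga
Rplp0, chr5:115559452-115559481, plus strand: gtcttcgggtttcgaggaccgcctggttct
Rps25, chr9:44407699-44407728, plus strand: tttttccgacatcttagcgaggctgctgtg
Rpl26, chr11:68901551-68901580, plus strand: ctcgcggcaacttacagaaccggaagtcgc

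An annotated start that is off by a few bases moves the run out of this window, so a start without a run says nothing of the transcript's true first base. Median log2 fold changes were -0.50 for 22 with a run and -0.52 for 43 without in Nr4a1-OV over RV-GFP, and 0.38 with and 0.35 without in cultured KO over WT. Rpl14 has a run of 14 bases. The letters CCGGAAG, the core bound by ETS factors, were present on either strand in 34.2% of member windows and 8.86% of all windows, and AAGATGGC, a YY1 site, in 10.5% and 2.75%. The monomer site of the NR4A receptors, AAAGGTCA, was present in 3 of 76 member windows (3.95%) and 1.51% of all windows. All 3 are overlapping windows of a single gene, Rpl35a, so that share does not count separate genes. The same windows also hold AAGATGGC. The E-box CACGTG was present in 10.5% of member windows and 7.15% of all windows. These are matches of letters only.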

How the data were processed

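RNA sequencing libraries of mouse CD8+ T cells were compared: 8 cultured and 10 from tumours. For cultured cells the authors deposited raw counts per gene beside RPKM, and for tumour cells RPKM. Reads were mapped to mm10, and Trim Galore, HISAT2, edgeR and DESeq2 are named in the submitters' processing notes; the counter and annotation are not given in the sources used here. The labels name 2 library kits without saying which library had which. Columns named for exhausted cells were taken as the Tim-3+ libraries, and 2 columns that match no labelled library were not analysed.

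Counts were tested with edgeR 4.0.16 (R 4.3.3; TMM, filterByExpr, quasi-likelihood test, 1 model of the 8 cultured libraries). RPKM were tested with limma 3.58.1 on log2(RPKM + 1), after a filter of 1 RPKM in as many libraries as the smaller group holds; this scale understates changes of low genes. P-values were adjusted by Benjamini-Hochberg over all genes tested, with a threshold of 0.05. Whole reads were recovered from tumour RPKM (97.8% to 98.9% of low values came out whole within 0.05 reads) and tested with edgeR as an alternative. DESeq2 1.42.0, other scalings, filters and pseudocounts, a replicate block and leaving out each library were also tried. The fits were tested on simulated data. Single ratios and shares were compared by exact permutation over libraries. Genes were named by rule: the stalk genes and Rpsa; paralogs with their parents; per comparison, among members past the threshold whose groups did not overlap and whose mean log2 CPM or RPKM was at least 1, the 6 highest and 6 lowest fold changes, with any called against the majority; the 2 highest and 2 lowest where under 4 passed; the 5 of highest mean RPKM; and up to 4 genes of each other list by smallest p. Members named as not passing, Rpl3-ps1, Rplp0-ps1 and further examples fall outside it and were chosen after their values were seen. The members and lists were chosen with earlier results of these data known. Some items that the rule names are not reported here.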

Additional observations from a re-analysis of the deposited data

Results flagged for a closer look

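Rplp0 stands out because the KO and WT contrasts of the 2 settings moved it in opposite directions. Its log2 fold change in cultured KO over cultured WT was 1.07, and in Ly108+ KO over Ly108+ WT it was -0.63. Every KO-labelled library lay above every WT-labelled library in culture and below every one in the tumour cells. The 2 contrasts come from tables normalised separately, and the difference between them was not tested. Rpl3, Rpl36al and Rps19bp1 also had groups that did not overlap in opposite directions, but passed the threshold in at most 1 of the settings.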

How the results depend on the processing

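No result on a single gene changed its direction under an alternative, while the differences in share of Ly108+ KO and Nr4a1RFP+, which passed no test, took both signs when single libraries were left out. Of 44 results on named members, 26 kept their side of the threshold under every alternative, 14 lost a call under at least 1 and 4 gained one. Leaving out each library in turn gave 77 to 78 members lower in Nr4a1-OV, 56 to 68 higher and 1 to 3 lower in cultured KO, 76 to 81 higher and 0 to 3 lower in RV-GFP against cultured WT, and 78 to 81 lower and 0 to 1 higher for the difference of effects. In Ly108+ KO it gave 0 to 31 higher and 1 to 3 lower, and in Nr4a1RFP+ 0 to 8 higher and 0 to 39 lower. Recovered reads gave 4 higher in Ly108+ KO, against 2.85% of all genes, and 4 with pseudogene reads added, against 2.77%. They gave 3 and 2 lower, against 4.68% and 4.875%. The differences in share ranged from -1.19 to -0.851 points in Nr4a1-OV, 1.10 to 1.33 in cultured KO, 0.713 to 0.939 in RV-GFP against cultured WT, -0.342 to 0.396 in Ly108+ KO and -0.349 to 0.662 in Nr4a1RFP+. Without the 5 highest members they were -0.708 in Nr4a1-OV, 0.838 in cultured KO and 0.506 in RV-GFP, and over the genes shared by every table the cultured KO difference was 1.34 points. The cause was not tested. The replicate block gave 79 lower in Nr4a1-OV, against 34.1% of all genes. In cultured KO it gave 71 higher and 1 lower, against 21.1% and 20.4%, and in RV-GFP 81 higher, against 36.0%. For Ly108+ KO it gave 3 higher and 2 lower, against 2.095% and 2.21%, and for Nr4a1RFP+ 1 lower, against 11.5%. Nothing in the labels pairs the libraries: same-numbered deviations correlated at 0.146 for Nr4a1-OV, 0.117 for cultured KO, 0.225 for Nr4a1RFP+, -0.104 to 0.242 for Ly108+ and -0.111 for RV-GFP against cultured WT. In that last comparison crossed numbers gave 81 higher and 0 lower, against 36.8% and 39.1% of all genes. The crossed block and the added pseudogene reads were chosen after seeing the data. In the cultured counts Rps27rt, Rpl24 and Rpl32l rested on few reads.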
